A study of Mus musculus with 8 samples.

Results

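The amino acid transporters described here are the genes whose mouse symbols begin with Slc3a, Slc7a, Slc36a, Slc38a or Slc43a, without Slc7a10, Slc7a11, Slc38a3 and Slc38a5. Matched by Ensembl identifier, they were 34 of the 55417 gene rows of each count table, and 31 of the 34 name a transporter or a transporter subunit. The other 3, Slc7a6os, Slc36a1os and Slc36a3os, are neighbours on the opposite strand whose symbols share the same start. Astrocytes of 4 wild-type (WT) mice, taken by flow sorting from cortical and from subcortical tissue at postnatal day 29, gave the libraries. Mice 1 and 4 were male and mice 2 and 3 female, and each mouse gave 1 library per region, so that 4 cortical libraries were compared with 4 subcortical ones within mice. No treatment or further allele is given for any of them, and the strain, the reporter or gate of the sort and the dissected subcortical structures are not given in the sources used here. Reads came from the 3′ ends of polyadenylated RNA, and levels are counts-per-million values (CPM) after trimmed-mean scaling of the library sizes.

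Amino acids cross membranes through carriers of several families. Slc3 genes encode single-pass heavy chains, which carry light chains of the Slc7 family to the cell surface through a disulfide bond, and these pairs exchange one amino acid for another. Other Slc7 genes encode carriers of the cationic amino acids arginine and lysine that work without a heavy chain. Slc38 carriers move glutamine and other small neutral amino acids, several of them coupled to sodium, Slc36 carriers move small amino acids with protons, often out of lysosomes, and Slc43 carriers let large neutral amino acids pass by facilitated diffusion. In the brain, astrocytes make glutamine for neurons and take up branched-chain and cationic amino acids, and the vessel wall uses several of the same carriers to bring amino acids in from the blood.

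Gene counts summed to 3537852 to 4060891 in the cortical libraries and 2484717 to 3829804 in the subcortical ones. The 10 astrocyte markers that were followed summed to 25971 to 28256 in cortical and 17919 to 19931 CPM in subcortical libraries, above the sum of any other marker list in every library. Oligodendrocyte lineage markers came next, at 1062 to 1489 in cortical and 2486 to 5978 CPM in subcortical libraries. Pericyte and vascular smooth muscle markers followed in each library, with 470 to 1045 CPM over cortical and 335 to 1217 CPM over subcortical libraries, and 0 of 7 tested were called between regions. Neuronal markers summed to 169 to 372 and 96.3 to 154 CPM, microglial markers to 160 to 355 and 114 to 202 CPM, endothelial markers to 6.16 to 12.2 and 3.88 to 27.8 CPM, and erythroid markers to 25.1 to 136 and 7.75 to 294 CPM. The subcortical library of mouse 3 stood apart by its ependymal and choroid plexus markers, at 677 CPM against 27.8 to 96.5 CPM in the other 7 libraries.

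Of the 34 genes, 27 had at least 1 count and 16 passed the filter on low counts and were tested. The 16 tested genes were Slc3a2, Slc7a1, Slc7a2, Slc7a4, Slc7a5, Slc7a6, Slc7a6os, Slc36a1, Slc36a4, Slc38a1, Slc38a2, Slc38a6, Slc38a7, Slc38a9, Slc38a10 and Slc43a2. With edgeR's quasi-likelihood test, the mouse as a block and Benjamini-Hochberg adjustment over 11781 genes, 1 of the 16 passed an adjusted p of 0.05 between regions. It was Slc38a1, which was lower in cortical cells. In the same test 7.52% of all genes were called, so that 1 in 16 (6.25%) lay near the background, and 0 of 16 were called higher against 3.72%. The 886 called genes were 438 higher and 448 lower in cortical cells, and on raw library totals the split was 759 against 291. The median log2 fold change, cortical minus subcortical, was -0.13 over the 16 genes and -0.01 over all genes tested. At an unadjusted p under 0.05 there were 3 members (Slc38a1, Slc43a2 and Slc3a2), or 18.8%, against 17.9% of all genes.

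**Figure D1:**
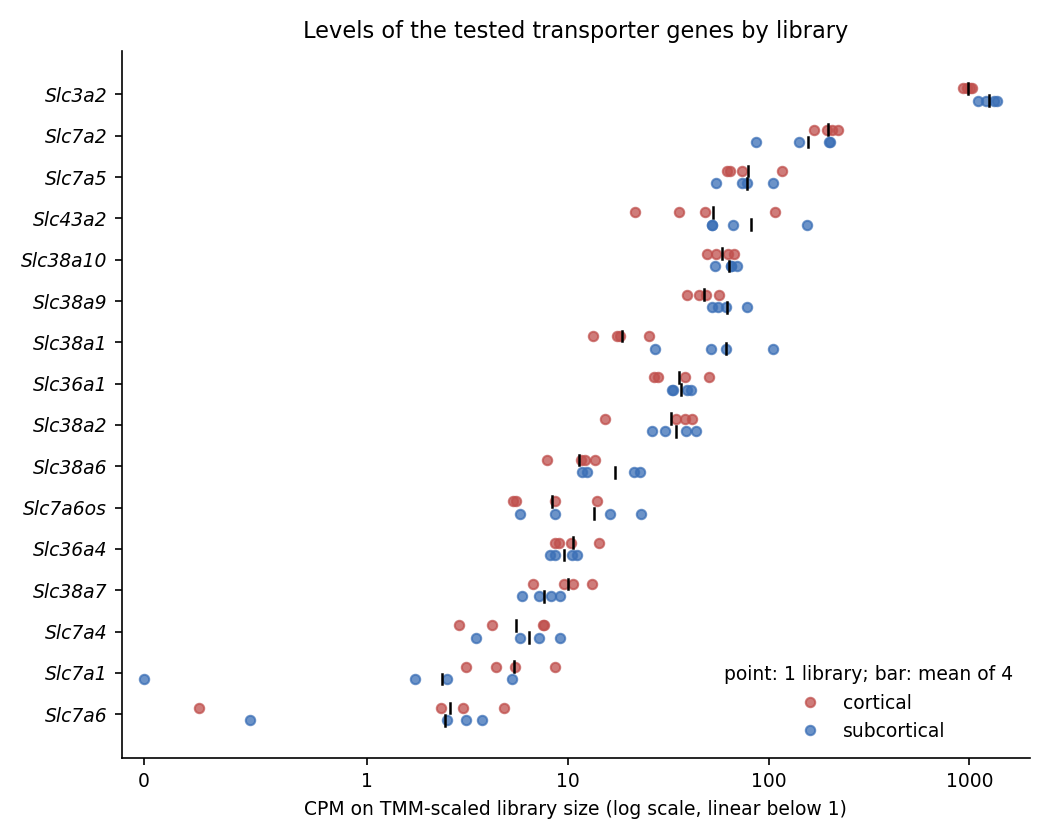
Levels of the 16 tested genes in CPM on a log scale that is linear below 1, with 1 point per library (4 cortical, 4 subcortical) and a bar at each mean. Slc3a2 sits between 934 and 1373 CPM, and Slc38a1 shows cortical points that do not reach the subcortical ones.

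The heavy chain gene Slc3a2 was the most abundant member. Slc3a2 (ENSMUSG00000010095) encodes the heavy chain known as CD98 or 4F2hc, and it took 60.3 to 67.6% of all counts of the 34 genes in a library. Its level was 934, 1033, 973 and 1003 CPM in the cortical libraries of mice 1 to 4 and 1326, 1212, 1107 and 1373 CPM in their subcortical libraries. The cortical libraries lay below all subcortical ones, a pattern of separated groups that 2 of 16 members and 12.2% of all genes shared (5.64% in this direction). The log2 fold change of -0.34 (SE 0.14, 95% interval -0.65 to -0.04, lower in the cortical library of 4 of 4 mice) did not pass the test over all genes (edgeR adjusted p = 0.196). On raw library totals it was -0.14, and the median of all genes was then 0.20 instead of -0.01. The groups of Slc3a2 then overlapped, and in mouse 2 the cortical value was the higher one. That mouse had 3989 of 3633602 gene counts in its cortical and 2537 of 2484717 in its subcortical library. The other heavy chain gene, Slc3a1, which serves cystine and dibasic amino acid uptake in kidney and gut, had 2 counts, both in the cortical library of mouse 4.

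The light chains that pair with Slc3a2 differed widely in level. The kit counts about 1 fragment per transcript end, so CPM of different genes are set side by side here without division by transcript length, and reads beyond an annotated end are missed. Slc7a5 (ENSMUSG00000040010), the large neutral amino acid exchanger LAT1, stood at 61.9, 116.8, 73.6 and 64.6 in cortical and 74.01, 105.5, 54.5 and 77.8 CPM in subcortical libraries of mice 1 to 4. The regions overlapped, and mouse 2 was highest in both. Its log2 fold change was 0.01 (SE 0.20, 95% interval -0.41 to 0.43, edgeR adjusted p = 0.988), an interval that leaves room for differences smaller than 1.5-fold either way. Slc7a6, a light chain that exchanges cationic for neutral amino acids, lay between 0.25 and 4.79 CPM, with 71 counts in all. The SE of its log2 fold change was 0.94, and the sign of the estimate changed with the scaling. Slc7a7, its relative known from kidney, gut and macrophages, and Slc7a8, the light chain LAT2, had 54 and 61 counts over the 8 libraries and were not tested. Slc7a7 was at 0 in the cortical library of mouse 4 and the subcortical library of mouse 1 and reached 4.93 CPM. Slc7a8 stood at 0.99, 3.63, 1.63 and 6.22 in cortical and 1.65, 0.96, 1.04 and 0.28 CPM in subcortical libraries. The regions overlapped, and 26 of its 51 cortical counts came from mouse 4.

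Most of the light chain transcripts that pair with Slc3a2 were of the genes that the selection left out. Slc7a11, the cystine/glutamate exchanger, stood at 574 to 741 in cortical and 468 to 761 CPM in subcortical libraries. Slc7a10, the exchanger for small neutral amino acids including D-serine, stood at 442 to 505 and 634 to 1013 CPM. The 6 light chain genes together (Slc7a5, Slc7a6, Slc7a7, Slc7a8, Slc7a10 and Slc7a11) gave 1.13 to 1.27 times the CPM of Slc3a2 in cortical and 1.09 to 1.38 times in subcortical libraries, ranges that overlapped. Slc7a5 made up 5.09 to 9.42% of that sum in cortical and 4.05 to 7.27% in subcortical libraries, while Slc7a6, Slc7a7 and Slc7a8 together made up 0.52 to 0.87% and 0.22 to 0.36%. Slc7a10 made up 35.7 to 42.7% in cortical and 43.7 to 57.5% in subcortical libraries. These ranges did not overlap, and neither did those of Slc7a6, Slc7a7 and Slc7a8 together, which went the other way. Shares of 1 sum depend on each other, and by CPM 12.2% of all genes tested had separated groups. Slc7a10 was lower in cortical cells by edgeR's test (log2 difference -0.64, SE 0.16, adjusted p = 0.011, 4 of 4 mice), a call that was lost on raw library totals (adjusted p = 0.101) and without mouse 1 (0.109).

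**Figure D2:**
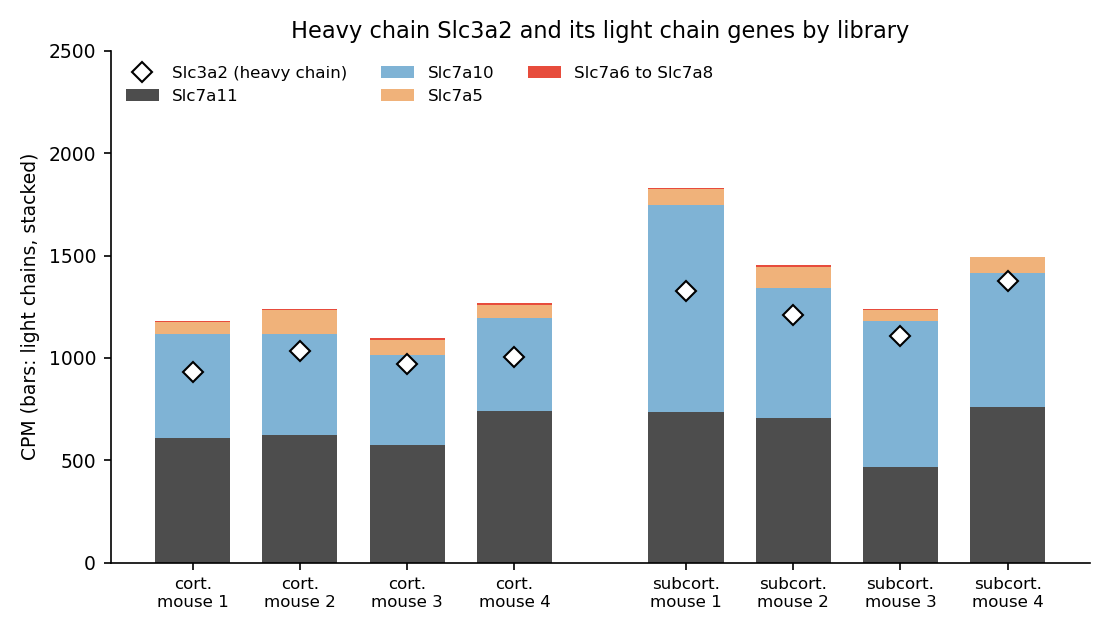
Stacked bars give the CPM of the light chain genes of Slc3a2 in each of the 8 libraries, and the diamond gives Slc3a2 itself. The stack exceeds the diamond in every library, by 1.09 to 1.38 times, and Slc7a11 and Slc7a10 fill most of it.

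Among the cationic amino acid transporters, Slc7a2 carried nearly all of the signal. Slc7a2 (ENSMUSG00000031596), the carrier CAT2 of arginine and lysine, was the second most abundant member, at 207.8, 195.1, 221.7 and 169.0 in cortical and 201.4, 86.4, 142.4 and 199.1 CPM in subcortical libraries of mice 1 to 4. The regions overlapped, and the log2 difference between them, 0.39 (SE 0.20, 95% interval -0.03 to 0.82), was not called (edgeR adjusted p = 0.325, higher in 3 of 4 mice). In the females, mice 2 and 3, the cortical library was the higher one by more than in either male. The log2 difference of the regional change, female minus male, was 1.00 (SE 0.35, unadjusted p = 0.0092), and it did not pass adjustment over all genes (edgeR adjusted p = 1.00).

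The relatives of Slc7a2 were scarce. Slc7a1, the widely expressed carrier CAT1, stood at 8.63, 5.44, 4.41 and 3.11 in cortical and 0, 5.25, 1.74 and 2.49 CPM in subcortical libraries, with 88 and 25 counts per region. It was higher in the cortical library of every mouse and the regions overlapped, but the interval of its log2 fold change ran from -0.93 to 3.67 (estimate 1.37, SE 1.10, edgeR adjusted p = 0.585). Without mouse 1, whose subcortical library had the 0, the estimate was 0.55, and without mouse 2 it was 1.96. Slc7a4, a relative without an established substrate, lay between 2.87 and 9.14 CPM over the 8 libraries (log2 fold change -0.22, SE 0.75, adjusted p = 0.925). Slc7a3, a cationic carrier known from neurons, had 46 counts and was at 0 in 3 libraries, and Slc7a14, a lysosomal relative, had 39 counts. Of the 39, 32 came from mouse 4, which stood at 4.07 in cortical and 4.15 CPM in subcortical cells against at most 1.91 CPM in any other library.

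Slc38a1 was the member that passed the test between regions. Slc38a1 (ENSMUSG00000023169) encodes SNAT1, a sodium-coupled carrier that takes up glutamine and is known best from neurons. It stood at 18.2, 17.6, 25.3 and 13.4 CPM in the cortical libraries of mice 1 to 4, a mean of 18.6 ± 4.9 CPM (SD, n = 4). In their subcortical libraries it stood at 61.6, 105.1, 27.1 and 51.5 CPM, a mean of 61.3 ± 32.6 CPM (SD, n = 4). All cortical libraries lay below all subcortical ones, but in mouse 3 the regions were close, at 25.3 and 27.1 CPM. The log2 fold change was -1.61 (SE 0.33, 95% interval -2.30 to -0.92), or 3.05-fold higher in subcortical cells, with an edgeR adjusted p of 0.0029 and the same direction in 4 of 4 mice. Calls in this direction made up 3.8% of all genes tested. The call was kept under all 11 alternatives, with a log2 fold change of -2.09 to -1.27, and came closest to the threshold without mouse 1 (adjusted p = 0.049) and without mouse 2 (0.038). In bulk samples such as these, fewer cells of a type and less RNA per cell cannot be told apart.

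Transcripts of another cell type moved in the same direction. Of 9 tested oligodendrocyte lineage markers, 7 were lower in cortical cells and 0 higher, and 0 of the 10 listed were at 0 in all libraries. Their sum in mice 1 to 4 was 1393, 1062, 1139 and 1489 in cortical and 5978, 3429, 3180 and 2486 CPM in subcortical libraries. All subcortical sums lay above all cortical ones, as the Slc38a1 values did. The highest sum was in the subcortical library of mouse 1, and the highest Slc38a1 value in that of mouse 2. Of the 10 astrocyte markers, 2 were higher and 1 lower in cortical cells. The sum of neuronal markers was the higher one in cortical libraries, and of 10 tested 2 were higher and 1 lower in cortical cells. Leptomeningeal fibroblast markers summed to 62.7 to 104 in cortical and 156 to 214 CPM in subcortical libraries, with 1 of 3 tested markers lower and Lum and Igf2 at 0. Of 5 tested ependymal and choroid plexus markers 1 was lower in cortical cells, 0 higher and 4 not called, with a median log2 fold change of -0.05. The called gene was Foxj1, a transcription factor gene of ciliated cells, with means of 12.1 ± 2.9 and 33.2 ± 7.0 CPM (SD, n = 4). It was lower in 4 of 4 mice (edgeR adjusted p = 0.0051). The part of these transcripts in the difference of Slc38a1 was not tested.

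**Figure D3:**
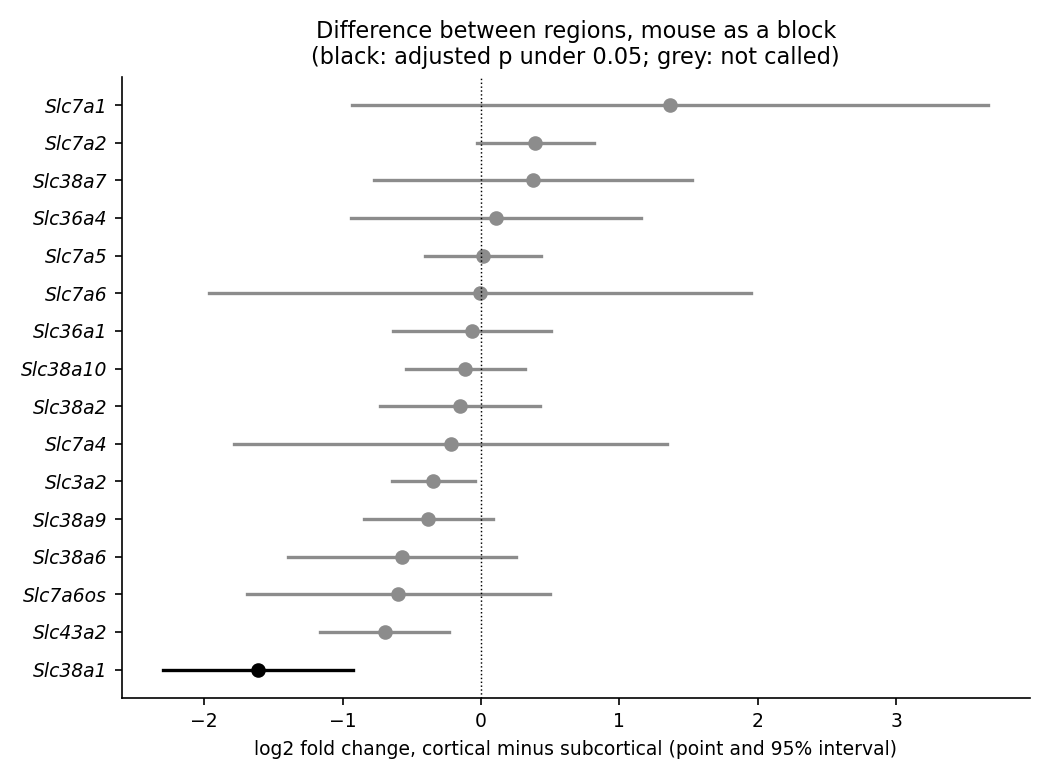
Log2 fold change, cortical minus subcortical, with its 95% interval for each of the 16 tested genes, from the fit with the mouse as a block. The interval of Slc38a1, from -2.30 to -0.92, is the one drawn in black because its adjusted p was under 0.05.

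None of the other tested Slc38 genes was called between regions. Slc38a2, the SNAT2 carrier that cells raise when amino acids run short, stood at 34.5, 15.3, 41.8 and 38.5 in cortical and 43.4, 26.3, 30.6 and 38.8 CPM in subcortical libraries. Mouse 2 was lowest in both regions, the regions overlapped, and the log2 fold change was -0.15 (SE 0.28, 95% interval -0.73 to 0.43, edgeR adjusted p = 0.849). Slc38a10, an intracellular relative, had a mean of 58.7 ± 8.2 CPM over cortical and 63.3 ± 6.6 CPM over subcortical libraries (SD, n = 4). Its log2 fold change was -0.11, with a 95% interval of -0.54 to 0.32, although the cortical value was the lower one in each mouse, and on raw library totals its sign was the opposite (0.09). Slc38a9, the lysosomal carrier that reports arginine to the kinase complex mTORC1, stood at 47.5 ± 7.3 and 62.0 ± 11.3 CPM (SD, n = 4), which gave -0.38 on the log2 scale (SE 0.22, edgeR adjusted p = 0.414).

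Slc38a6 and Slc38a7 were lower still. Slc38a6, a relative with a less settled substrate, stood at 7.89 to 13.6 in cortical and 11.8 to 23.0 CPM in subcortical libraries and each mouse had the lower value in its cortical library, for a log2 difference of -0.57 (SE 0.40, edgeR adjusted p = 0.515). Being lower in all 4 mice was seen for 6 of the 16 members and for 13.1% of all genes tested, and the same direction in all 4 mice, either way, for 7 members and 26.4% of genes. The 6 were Slc3a2, Slc7a6os, Slc38a1, Slc38a6, Slc38a10 and Slc43a2. These counts rest on the trimmed-mean scaling. On raw library totals only Slc38a1 of the 6 stayed lower in all 4 mice. Mouse 1 then had the higher cortical value for Slc7a6os, Slc38a6, Slc38a10 and Slc43a2, and mouse 2 for Slc3a2. The shares of all genes were not computed on raw totals. Slc38a7, which exports glutamine and asparagine from lysosomes, ranged from 5.90 to 13.2 CPM over all libraries, with a log2 fold change of 0.37 (SE 0.55, adjusted p = 0.802). Slc38a11 had 74 counts and was at 0 in 3 libraries, with its highest value of 9.03 CPM in the subcortical library of mouse 3. That library was the one with the raised ependymal markers, and their part in this value was not tested. Slc38a4, the SNAT4 carrier known from liver, had 3 counts in 1 library, and Slc38a8 had none.

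The left-out Slc38 genes framed these levels. Slc38a3, the SNAT3 carrier of astrocytes that releases glutamine, stood at 286 to 459 in cortical and 295 to 359 CPM in subcortical libraries, above every Slc38 member in each library. Its log2 fold change was 0.14 (SE 0.16, 95% interval -0.19 to 0.46, edgeR adjusted p = 0.727). Slc38a5, the SNAT5 carrier, had 0 counts in all 8 libraries, which allows 0.70 to 1.43 CPM in a single library at 3 counts.

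Slc43a2 had its highest values in mouse 2, and its call among mice, described below, was lost under several alternatives. Slc43a2 (ENSMUSG00000038178) encodes LAT4, a carrier that lets branched-chain amino acids, phenylalanine and methionine out of cells. It stood at 48.1, 107.3, 21.6 and 35.7 in cortical and 52.1, 155.7, 52.1 and 66.2 CPM in subcortical libraries of mice 1 to 4. Mouse 2 was highest in both regions, and within every mouse the cortical library was the lower one, while the regions overlapped as groups. On raw library totals the cortical library of mouse 1 was the higher one, with 195 of 3537852 gene counts against 126 of 2708481. Between regions the log2 fold change was -0.70 (SE 0.22, 95% interval -1.16 to -0.23). It did not pass with edgeR (adjusted p = 0.065) and did with limma-voom (adjusted p = 0.046). Without the mouse as a block it had an adjusted p of 0.478.

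A test of any difference among the 4 mice, with region as a term, was added after these values had been seen. By edgeR's quasi-likelihood test Slc43a2 was then 1 of 12 genes called among 11781 (adjusted p = 0.022), a background of 0.102%, and the only member among the 16. The next member, Slc7a5, had an adjusted p of 0.893, and these were the 2 members with an unadjusted p under 0.05, against 5.38% of genes. The call of Slc43a2 was lost on raw library totals (adjusted p = 0.062) and without mouse 1 (0.147), mouse 2 (0.972) or mouse 3 (0.120). The other Slc43 genes were low. Slc43a1, the carrier LAT3, had 4 counts, all in the subcortical library of mouse 4. Slc43a3, known as a nucleobase carrier, had 12, 3, 3 and 5 counts in cortical and 0 in all subcortical libraries. With the subcortical libraries together set at 3 counts, the level was 5.14-fold higher in cortical cells. The counting error of the 23 cortical counts is left out of this value. Slc43a3 did not pass the low-count filter and was not tested, and 12 of its 23 counts came from mouse 1.

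**Figure D4:**
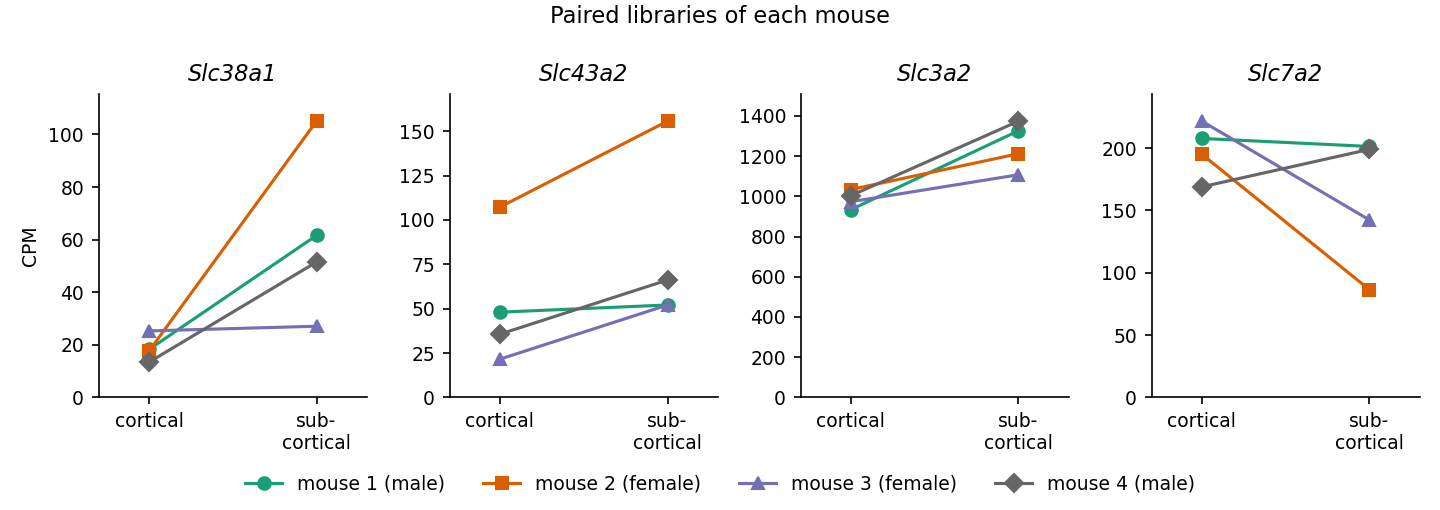
CPM of Slc38a1, Slc43a2, Slc3a2 and Slc7a2 in the cortical and subcortical library of each mouse, joined by a line per mouse, each axis starting at 0. On the scaled values drawn here, Slc38a1, Slc43a2 and Slc3a2 run upward towards the subcortical library in all 4 mice. On raw library totals Slc43a2 would run downward in mouse 1 and Slc3a2 in mouse 2. The line of mouse 2 lies above the others for Slc43a2.

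Neither of the tested Slc36 genes, which encode proton-coupled carriers, was called between regions. Slc36a1 (ENSMUSG00000020261), the lysosomal and plasma membrane carrier PAT1 of glycine, alanine and proline, stood at 26.9, 50.8, 28.1 and 38.3 in cortical and 40.9, 33.4, 39.2 and 32.9 CPM in subcortical libraries. The groups overlapped, 2 mice went each way, and the log2 fold change was -0.07 (SE 0.27, 95% interval -0.64 to 0.50, edgeR adjusted p = 0.941). Slc36a4, a high-affinity relative for proline and tryptophan, stood at 8.62 to 14.2 in cortical and 8.12 to 11.1 CPM in subcortical libraries (log2 fold change 0.11, SE 0.50, adjusted p = 0.947). Slc36a2, a glycine and proline carrier known from kidney, had 12 counts in the cortical and 6 in the subcortical library of mouse 4 and 0 in the other 6 libraries. Slc36a3 and the antisense genes Slc36a1os and Slc36a3os had 0 counts.

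Slc7a6os, which lies on the strand opposite Slc7a6 and encodes no transporter, was counted at 5.34 to 14.0 in cortical and 5.81 to 23.3 CPM in subcortical libraries (log2 fold change -0.60, SE 0.52, edgeR adjusted p = 0.626). The strand setting of the counting is unknown here, so reads of Slc7a6 and Slc7a6os, or of Slc36a1 and Slc36a1os, could be split between partners. The remaining members at 0 in all 8 libraries were Slc7a9, the light chain of Slc3a1, and Slc7a12 and Slc7a15, relatives of the light chains. With Slc36a1os, Slc36a3, Slc36a3os and Slc38a8 they made up the 7 members without a count. The light chain relative Slc7a13 had 1 count. A count of 0 over all 8 libraries allows up to 0.11 CPM at 3 counts, and this limit covers counting error only.

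In levels, the members fell into a few steps. Slc3a2 lay above all others in every library. Slc7a2 followed at 86.4 to 221.7 CPM, and its subcortical value in mouse 2 lay below those of Slc7a5, Slc38a1 and Slc43a2 in the same library. Slc7a5, Slc43a2, Slc38a10, Slc38a9, Slc38a1, Slc36a1 and Slc38a2, with means over all libraries from 78.6 down to 33.6 CPM, overlapped with their neighbours in this order. Slc38a6, Slc7a6os, Slc36a4, Slc38a7 and Slc7a4 followed with means from 14.2 to 5.97 CPM, and all other members had means under 4 CPM. Of the 16 tested genes, 7 had a 95% interval of the regional difference that stayed within 2-fold either way (Slc3a2, Slc7a2, Slc7a5, Slc36a1, Slc38a2, Slc38a9 and Slc38a10). The intervals of the other 9 reached beyond that.

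No member was called between the sexes with all 4 mice. On counts summed per mouse, 2 females against 2 males, 0 of 20 tested members passed an adjusted p of 0.05 by edgeR's quasi-likelihood test, and 0 had an unadjusted p under 0.05, against 0.0373% and 3.73% of 13402 genes. Without mouse 3, which leaves 1 female whose spread is taken to equal that of the males, Slc43a2 was called higher in females (edgeR adjusted p = 0.043). For the interaction of region and sex the same test called 0 of 16 members, and 0.0% of all genes. At an unadjusted p under 0.05 there was 1 member (Slc7a2), against 3.37% of genes. DESeq2 and limma-voom also called 0 members for sex and for the interaction.

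Genes that sense or use the same amino acids were followed as lists. The complex mTORC1 senses amino acids at the lysosome through the Rag GTPases. Of 34 tested genes of this complex and of the amino acid sensing upstream of it, 0 were called, and their median log2 fold change was -0.01. Of 15 tested genes of branched-chain amino acid breakdown 0 were called (median -0.19).

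The list for the response to amino acid shortage through the transcription factor ATF4 held 22 genes, with Atf3 and Trib3 at 0 in all libraries. Asns and Chac1, with 13 counts each, were among those not tested. Of 15 tested genes, 3 were called higher in cortical cells, against 3.72% of all genes, and 0 lower. The median log2 fold change was 0.55. Atf4 itself stood at 0.01, and Cebpg, Eif2s1, Ddit4 and Gpt2 had estimates from -0.77 to -0.17 that were not called. Psat1, an enzyme gene of serine synthesis, stood at 233 ± 22 against 125 ± 23 CPM (SD, n = 4, log2 fold change 0.92, SE 0.17, edgeR adjusted p = 0.0010). Ddit3, which encodes the stress factor CHOP, stood at 27.5 ± 6.8 against 9.26 ± 3.44 CPM, and Nupr1, a stress-induced chromatin protein gene, at 26.7 ± 14.0 against 1.84 ± 1.66 CPM (SD, n = 4), with edgeR adjusted p of 0.013 and 1.3e-04. Of 8 tested microglial and macrophage markers, 3 were also higher in cortical cells and 0 lower, and their part in these differences was not tested. The transporter genes known as targets of ATF4 among the members, Slc3a2, Slc7a5, Slc7a1 and Slc38a2, had the log2 fold changes given above, from -0.34 to 1.37, and 0 of these 4 were called.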

How the data were processed

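Polyadenylated 3′ end libraries (QuantSeq 3′ FWD, per the labels' protocols) of 8 astrocyte samples were used as raw read counts per gene, deposited by the authors. Tools named in the submitters' processing notes are STAR 2.6.0, HTSeq 0.9.0, FastQC 0.11.5 and DESeq2 1.35.0, with the mouse build GRCm39. The sources used here give neither a strand setting nor molecular identifiers, and counting limits cover counting error only. A deposited table of normalized values, with 8 columns, was not used. Reads outside genes stayed out of library sizes. They made up 30.2 to 40.7% of the reads counted in genes, outside genes or as ambiguous.

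Counts were tested with edgeR 4.0.16 (R 4.3.3; quasi-likelihood, trimmed-mean factors, edgeR's default expression filter by region, Benjamini-Hochberg threshold 0.05), with mouse as a block because titles give both libraries of an animal the same mouse number. After the region means were removed, libraries of the same mouse correlated at 0.019 to 0.059 and those of different mice at -0.084 to 0.047. Sex was tested on counts summed per mouse. Alternatives were DESeq2 1.42.0, limma-voom (limma 3.58.1), other scalings, other filters (at least 1 count, or 5 CPM in 4 libraries), no block, and each mouse left out. In simulated data, changes were placed only in genes over 20 CPM, with the same dispersion for all genes. The dispersion and the spread between mice were chosen values, not fitted to these data, so the rates hold for that setting only. The region test recovered 73% of genes changed by 1 and 100% of those changed by 2 on the log2 scale (11606 genes). The interaction test recovered 9% and 69% (11596 genes), the sex test 40% and 100%, and the test among mice 31% and 100%. Of the 16 tested members, 7 had means under 20 CPM, and these rates do not cover them.

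The members and lists were chosen with earlier results of these data known. Every member with a count is accounted for, tested members are named with values, and up to 4 called genes with the smallest p are named per pathway list. Marker lists are given by counts and sums. The list of amino acid carriers of other families is not reported here.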

Additional observations from a re-analysis of the deposited data

Results flagged for a closer look

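Slc43a2 in the subcortical libraries stood out by 1 sample. Mouse 2 had 156 CPM, against 52.1, 52.1 and 66.2 CPM in mice 1, 3 and 4, a gap of 0.86 of the whole range, above the 95% critical value of Dixon's ratio for 4 samples. Among 32 groups of 4 libraries checked in this way, 1 was marked, and chance marks about 1 group in 20.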

How the results depend on the processing

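Of 173 regional log2 fold changes of members under alternatives, 156 kept their direction and side of the threshold, 16 (7 genes, none called) changed sign and 1 became a call; 9 of 16 members kept their direction throughout. With limma-voom 2 members were called between regions, adding Slc43a2. The count stayed at 1 with each mouse left out. Without the replicate block it was also 1, and 802 genes were called in all against 886, 770 of them shared. The sex test gave 0 to 1 members with a mouse left out, and the test among mice gave 0 to 1, and 0 on raw library totals. On raw library totals the log2 fold change was 0.16 for Slc7a6, 0.14 for Slc36a1, 0.053 for Slc38a2 and 0.094 for Slc38a10. Slc7a6, with 71 counts, was at 0.069 without the block, 0.015 with DESeq2, 0.19 with limma-voom and 0.022 without the filter. With each mouse left out the ranges were -0.44 to 0.25 for Slc7a4, -0.12 to 0.12 for Slc7a5, -0.29 to 0.11 for Slc36a1, -0.11 to 0.26 for Slc36a4 and -0.36 to 0.037 for Slc38a2. For Slc7a1 it was 0.55 to 1.96. For Slc7a6 it was -0.62 to 0.90 over mice 1, 2 and 4, since without mouse 3 the gene did not pass the low-count filter. Without mouse 1, 518 genes were called between regions. The cause of these changes was not tested.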

Other observations

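Beside Slc43a2, the 12 genes called among mice included the sex-linked Xist, Ddx3y, Uty, Eif2s3y and Kdm5d, the globin genes Hbb-bs and Hbb-bt, Lrrc17, ENSMUSG00002075795, Slc16a6 and Txnip. Slc16a6, a carrier of the monocarboxylate transporter family, stood at 90.7, 203, 115 and 171 CPM in cortical and 382, 1216, 344 and 611 CPM in subcortical libraries of mice 1 to 4 (edgeR quasi-likelihood adjusted p among mice = 0.018). Txnip, the thioredoxin-interacting protein gene that cells raise with glucose, stood at 13.1, 64.2, 18.3 and 36.9 CPM in cortical and 28.9, 79.3, 15.3 and 68.1 CPM in subcortical libraries (adjusted p = 0.040). Both were highest in mouse 2 in each region, as Slc43a2 was. These 2 genes were picked after their values had been seen.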
